A study of Mus musculus with 8 samples.

Results

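The 9 genes described here encode the core of the hyaluronan-based matrix around neurons and synapses: the lecticans Vcan, Ncan, Bcan and Acan, the link proteins Hapln1, Hapln2 and Hapln4, and the tenascins Tnc and Tnr. They were chosen by name, as perineuronal and perisynaptic matrix genes listed in the count tables of both ages, and all 9 were found among 24421 genes. They and the gene lists below were chosen with earlier results of these data known. Counts of members that passed, set beside all genes, are therefore descriptions. Lecticans are chondroitin sulfate proteoglycans that bind the long sugar hyaluronan at one end and tenascins at the other, and link proteins clamp the lectican to the hyaluronan. In the brain a loose juvenile matrix rich in versican, neurocan and tenascin-C is known to give way to an adult matrix rich in brevican, aggrecan and tenascin-R. This adult matrix includes the perineuronal nets, dense coats around parvalbumin interneurons and some other neurons, and the matrix at nodes of Ranvier.

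RNA came from the hippocampus of wildtype C57BL/6J mice that were labelled male. Their mothers were assigned at random to intraperitoneal dexamethasone, a synthetic glucocorticoid, at 1 mg/kg per day for 5 days from 14.5 days post coitum, or to the same volume of saline. The labels call the offspring of the first IUGR (intrauterine growth retardation) and those of the second NS (normal saline). The 4 groups were NS and IUGR at postnatal day 3 and NS and IUGR at week 8, with 2 libraries each (n = 2). The labels do not say whether the libraries of a group came from separate animals, litters or pools. The p-values therefore measure only the spread between these libraries, which may be technical at week 8. At postnatal day 3 the sex-linked counts given below differed between the libraries of each group, so these were not repeats of the same sample.

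Total counts ranged from 13030277 to 18993050 per library, and values are CPM, the count scaled to that total. Hippocampal field and granule cell markers were detected (7 of 7 genes, summed level 462.3 to 995.2 CPM). A thalamus and habenula list summed to 299.7 CPM in IUGR replicate 2 of postnatal day 3 and to 158.1 to 183.7 CPM in the other libraries of that age. Tcf7l2 of this list stood at 95.4 CPM there against 6.41 to 35.4 CPM, while Nr4a2 went the other way, at 25.4 against 47.7 to 50.4 CPM. The part of this list in the results was not tested. At postnatal day 3 both replicate 2 libraries went against the male label: Xist, expressed from the inactive X chromosome, had 4998 counts in NS and 5130 in IUGR, against 4 and 81 in replicate 1, and 4 Y-linked genes summed to 34 and 74 counts against 3783 and 5364. At week 8 the libraries split by replicate number: Rpph1, the RNA of ribonuclease P, stood at 76920 and 64900 CPM in replicate 1 and at 0 and 0.137 CPM in replicate 2. At postnatal day 3 Rpph1 stood at 74360 and 63940 CPM in NS and at 49480 and 49120 CPM in IUGR. The week 8 replicate 2 libraries thus stood apart from all the others, and the differences between ages include this split. Results are therefore also given without the replicate 2 libraries of either age or within a replicate number.

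On GRCm38, the assembly also called mm10, with GENCODE M21 gene models, Vcan (chr13:89655312-89742509, minus strand) and Hapln1 (chr13:89539796-89611652, plus) lay 43.7 kb apart. Ncan (chr8:70093085-70120873, minus) and Hapln4 (chr8:70083457-70090862, plus) lay 2222 bases apart. Bcan (chr3:87987531-88000230, minus) and Hapln2 (chr3:88021750-88027583, minus) lay 21.5 kb apart. Acan (chr7:79053483-79115099, plus) ended 2 bases from Hapln3, the remaining link protein gene, which is not among the 9. Each lectican gene thus had a link protein gene as its nearest neighbour on one side. Tnc (chr4:63959785-64047015, minus) and Tnr (chr1:159523769-159931729, plus) had none. Gene models on the other strand overlap Vcan, Hapln1, Tnc and Tnr, and whether the counting used strand is not given in the sources used here, so some reads of these genes could belong to the partner.

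The sequences just upstream are shown for the 3 genes that were lower at week 8 in both treatment groups and for the link protein gene with the largest difference between ages, so that the reader can see the promoter letters beside the values. They are RefSeq promoter windows of GRCm38.p6, 5′ to 3′ on the strand of the gene, trimmed where they ran into an annotated transcript. Capitals mark 3 motifs searched on both strands: the E-box CANNTG, the CCAAT box and the TATA box TATAAA.
Vcan, chr13:89742513-89742762, minus strand: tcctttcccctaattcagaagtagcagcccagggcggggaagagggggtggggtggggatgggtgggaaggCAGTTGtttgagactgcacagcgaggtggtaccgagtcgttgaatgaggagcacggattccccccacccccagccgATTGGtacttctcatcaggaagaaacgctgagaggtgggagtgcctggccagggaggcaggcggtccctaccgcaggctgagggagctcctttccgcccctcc
Ncan, chr8:70120874-70121094, minus strand: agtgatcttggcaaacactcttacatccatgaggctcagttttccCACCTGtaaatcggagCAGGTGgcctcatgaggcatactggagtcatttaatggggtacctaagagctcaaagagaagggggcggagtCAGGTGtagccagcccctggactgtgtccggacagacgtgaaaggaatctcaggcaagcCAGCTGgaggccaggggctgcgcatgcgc
Tnc, chr4:64047016-64047265, minus strand: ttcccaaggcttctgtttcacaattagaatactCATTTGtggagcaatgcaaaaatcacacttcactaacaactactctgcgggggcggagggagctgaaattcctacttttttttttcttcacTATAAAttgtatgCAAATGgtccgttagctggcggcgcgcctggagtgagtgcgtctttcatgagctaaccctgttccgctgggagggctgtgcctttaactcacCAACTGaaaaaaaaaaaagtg
Hapln2, chr3:88027584-88027761, minus strand: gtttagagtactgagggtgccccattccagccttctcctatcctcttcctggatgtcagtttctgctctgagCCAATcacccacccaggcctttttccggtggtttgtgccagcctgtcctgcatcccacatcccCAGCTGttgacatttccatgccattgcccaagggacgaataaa
The Ncan window held 4 E-boxes and the Tnc window 3, with 1 TATA box in each, that of Ncan in the trimmed bases next to the start. The Vcan and Hapln2 windows each held 1 E-box and 1 CCAAT box. These letters are common: of 32851 RefSeq windows of 250 bases, 66.2% held an E-box, 33.8% a CCAAT box and 12.4% a TATA box. The glucocorticoid response element, searched by its palindromic consensus in the same way, was in 0.387% of all windows and in none of the windows of the 8 members that matched the table. A match is a description of letters, and Hapln4 had no entry.

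Between postnatal day 3 and week 8 the matrix genes moved in opposite directions, and in both treatment groups. Vcan, Ncan and Tnc fell, while Hapln2 and Hapln4 rose, by 6 log2 units or more, in NS and in IUGR. Hapln1 passed the test in IUGR and missed it in NS, and Bcan, Acan and Tnr passed in neither group. In NS 5 of 9 members passed an adjusted p of 0.05 (edgeR quasi-likelihood test, Benjamini-Hochberg adjustment over 15999 genes), where 14.1% of all genes did. In IUGR 6 of 9 passed, where 16.8% of all genes did. Both counts include Hapln2, which met the count filter only through its week 8 level. Its call as higher at week 8 is therefore not independent of that filter. Bulk RNA was measured, so fewer cells of a type and less RNA per cell cannot be told apart.

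**Figure D1:**
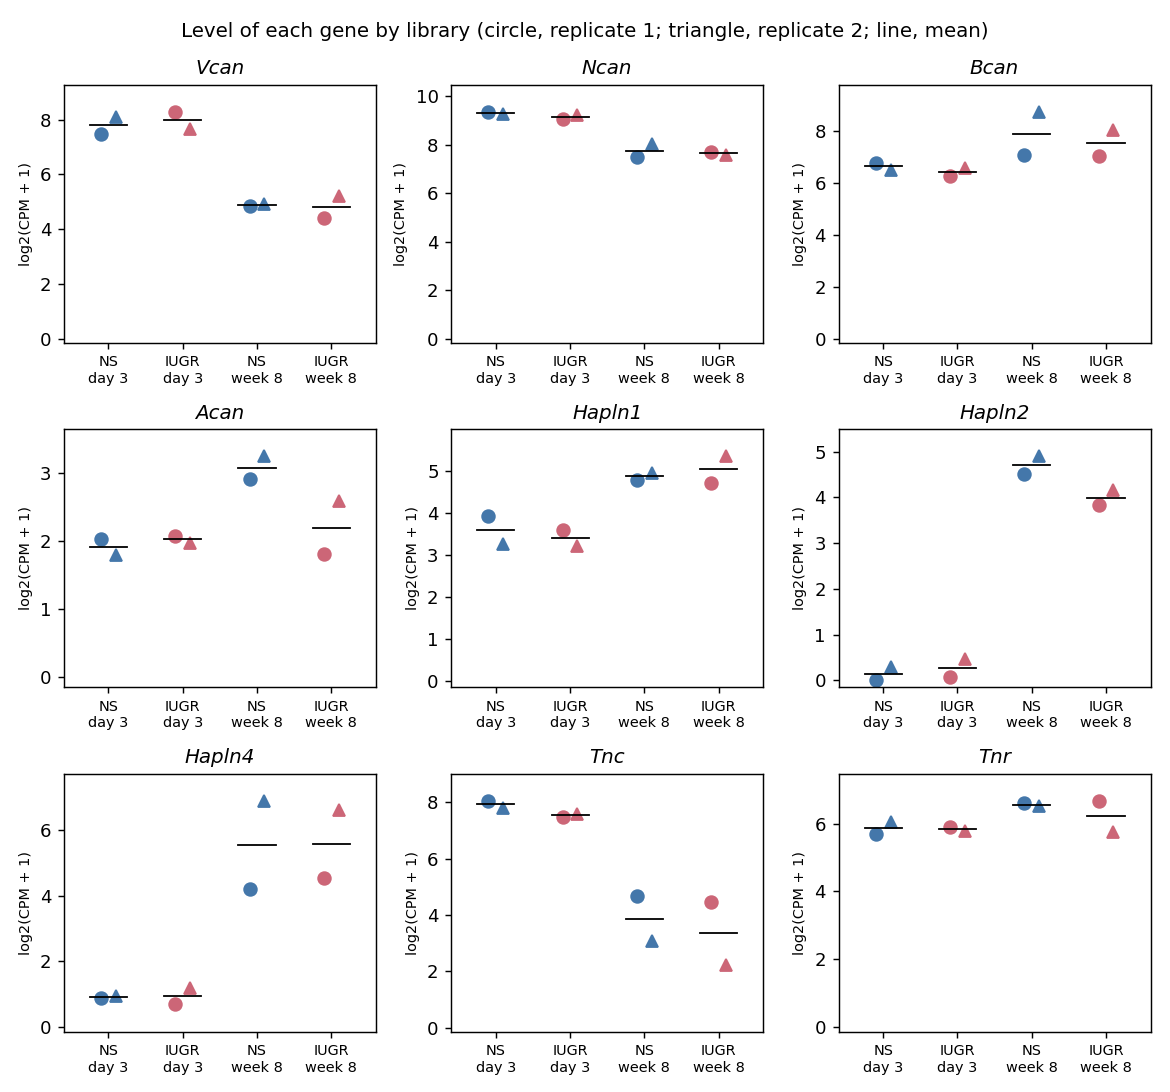
Level of each of the 9 genes in all 8 libraries, as log2(CPM + 1), with points for single libraries by group. Vcan, Ncan and Tnc are lower at week 8 than at postnatal day 3 in every library, and Hapln2 and Hapln4 are higher.

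Among the lecticans, Vcan, whose 9 annotated transcripts the counts do not separate, encodes versican, the largest of the family and abundant in immature brain. Its level was 177 and 271 CPM for NS and 308 and 203 CPM for IUGR at postnatal day 3, and 27.6 and 28.9 CPM for NS and 20.2 and 35.6 CPM for IUGR at week 8. The ages did not overlap, and the treatment groups overlapped at each age. Vcan fell by 2.96 ± 0.40 on the log2 scale (SE) in NS (adjusted p = 0.00865) and by 3.09 ± 0.40 in IUGR (adjusted p = 0.007). Ncan encodes neurocan, made by neurons and astrocytes of the developing brain. Its level was 643 and 618 CPM for NS and 529 and 600 CPM for IUGR at postnatal day 3, and 178 and 258 CPM for NS and 206 and 190 CPM for IUGR at week 8. All week 8 libraries were below all postnatal day 3 libraries. Ncan fell by 1.50 ± 0.26 on the log2 scale in NS (adjusted p = 0.0162) and by 1.41 ± 0.26 in IUGR (adjusted p = 0.0167).

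Bcan encodes brevican, the lectican of adult perisynaptic matrix. Its level was 110 and 90.4 CPM for NS and 75.3 and 93.3 CPM for IUGR at postnatal day 3, and 133 and 423 CPM for NS and 131 and 262 CPM for IUGR at week 8. Every week 8 library was higher, but the replicate 2 libraries were far above replicate 1. The log2 difference was 1.51 ± 0.58 in NS (adjusted p = 0.129) and 1.33 ± 0.58 in IUGR (adjusted p = 0.157). Without NS replicate 1 of week 8 the NS difference of Bcan was 2.11 (adjusted p = 0.0224), and without NS replicate 2 it was 0.42. Acan encodes aggrecan, a main lectican of perineuronal nets. Its level was low, at 3.10 and 2.46 CPM for NS and 3.23 and 2.92 CPM for IUGR at postnatal day 3, and 6.52 and 8.53 CPM for NS and 2.50 and 5.00 CPM for IUGR at week 8. In NS the ages did not overlap, and in IUGR they did, with 1 week 8 library below both younger ones. The log2 difference between ages was 1.47 ± 0.43 in NS (adjusted p = 0.0673) and 0.39 ± 0.42 in IUGR (adjusted p = 0.55).

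Among the link proteins, Hapln1 encodes the link protein that stabilises aggrecan in cartilage and in perineuronal nets. Its level was 14.2 and 8.51 CPM for NS and 11 and 8.27 CPM for IUGR at postnatal day 3, and 26.7 and 30.0 CPM for NS and 25.4 and 39.6 CPM for IUGR at week 8. The ages did not overlap in either treatment group. Hapln1 rose by 1.86 ± 0.37 on the log2 scale in IUGR (adjusted p = 0.0202), and in NS the log2 difference was 1.35 ± 0.36 (adjusted p = 0.0534). Hapln2, also called Bral1, encodes a link protein of nodes of Ranvier in white matter. It had 0 and 4 counts in NS and 1 and 7 counts in IUGR at postnatal day 3, where 3 counts, the upper limit of a count of 0, correspond to 0.158 to 0.23 CPM across libraries. At week 8 its level was 21.9 and 28.8 CPM for NS and 13.2 and 16.9 CPM for IUGR. Hapln2 was thus near the detection floor in all young libraries and plainly detected in all older ones.

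The ratio of summed Hapln2 counts per total, week 8 over postnatal day 3, was 208 in NS (95% exact interval 81.1 to 767) and 67.3 in IUGR (33.9 to 157), intervals that cover counting error only. The fitted log2 difference, which depends on the prior count for so few counts, was 7.64 ± 0.95 in NS (adjusted p = 0.0076) and 6.14 ± 0.86 in IUGR (adjusted p = 0.00862). Hapln4, also called Bral2, encodes the link protein that partners brevican at synapses. Its level was 0.825 and 0.913 CPM for NS and 0.624 and 1.27 CPM for IUGR at postnatal day 3, and 17.3 and 117 CPM for NS and 22.4 and 96.1 CPM for IUGR at week 8. All older libraries were above all younger ones, and the replicate 2 libraries were the highest in both treatment groups. Hapln4 rose by 6.30 ± 1.24 on the log2 scale in NS (adjusted p = 0.0234) and by 6.06 ± 1.22 in IUGR (adjusted p = 0.0214).

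Of the tenascins, Tnc encodes tenascin-C, a glycoprotein of progenitor zones and immature astrocytes. Its level was 264 and 223 CPM for NS and 180 and 190 CPM for IUGR at postnatal day 3, and 24.5 and 7.42 CPM for NS and 21.2 and 3.70 CPM for IUGR at week 8. The ages were far apart, and at week 8 replicate 2 was the lower library in both treatment groups. Tnc fell by 3.91 ± 0.89 on the log2 scale in NS (adjusted p = 0.0351) and by 3.79 ± 0.89 in IUGR (adjusted p = 0.0334). Tnr encodes tenascin-R, a cross-linker of lecticans in nets that oligodendrocytes and some neurons make. Its level was 50.9 and 64.6 CPM for NS and 58.5 and 54.2 CPM for IUGR at postnatal day 3, and 97.2 and 89.8 CPM for NS and 100 and 52.9 CPM for IUGR at week 8. In NS the ages were apart, and in IUGR 1 week 8 library lay below both young ones. The log2 difference was 0.72 ± 0.32 in NS (adjusted p = 0.172) and 0.55 ± 0.32 in IUGR (adjusted p = 0.269).

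**Figure D2:**
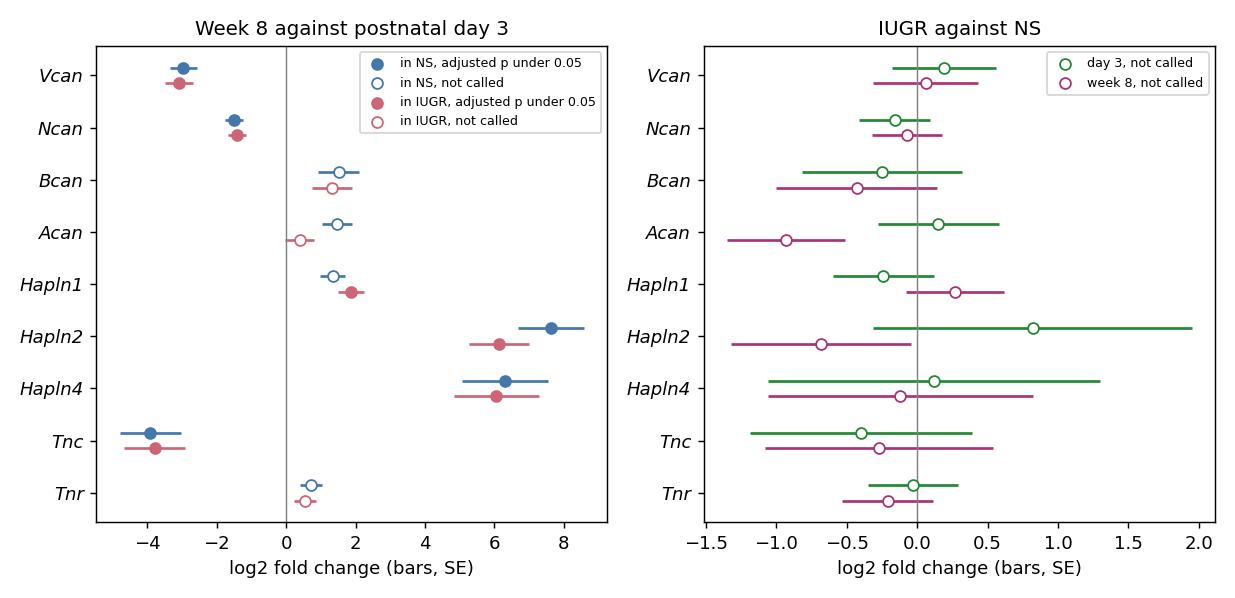
Fitted log2 fold changes of the 9 genes with their standard errors, for week 8 against postnatal day 3 in each treatment group and for IUGR against NS at each age. The age differences of Hapln2 and Hapln4 are above 6 and those of Tnc and Vcan near -4 and -3, while no IUGR difference passed the test.

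The number of these calls depended on which libraries were kept, and the cause was not tested. With either NS library of postnatal day 3 left out, 0 of 9 members passed in NS, and with either IUGR library of that age left out 2 passed. In IUGR the count was 0 without IUGR replicate 1 and 1 without IUGR replicate 2 of postnatal day 3, 3 without either NS library of that age, and 2 without IUGR replicate 2 of week 8. Without both replicate 2 libraries of postnatal day 3, whose Xist and Y-linked counts went against the label, 0 of 9 passed in either treatment group, and 0 genes in all did. Most differences kept a similar size: Vcan was at -2.63 in NS and -3.37 in IUGR on the log2 scale, and Tnc at -4.04 and -3.76. Ncan was at -1.54 and -1.33, and Hapln4 at 6.37 and 6.64. Hapln2 moved to 11.61 in NS, where its only remaining young library had 0 counts, and to 7.95 in IUGR. With single libraries left out Hapln2 ran from 6.77 to 11.66 in NS and from 5.37 to 7.95 in IUGR. Hapln4 missed the threshold with limma voom in both groups (adjusted p = 0.0988 in NS and 0.0831 in IUGR). Tnc missed it in NS without NS replicate 2 of week 8 (adjusted p = 0.101). Of the members that had missed it in NS, Acan and Hapln1 passed without either IUGR library of week 8, and Bcan passed without NS replicate 1 of that age. Bcan passed in IUGR without either NS library of week 8.

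Ages that did not overlap in CPM were common among all genes. In NS the week 8 libraries were lower for 3 members (Vcan, Ncan and Tnc) and higher for the other 6, against 32.6% and 29.2% of all genes. In IUGR they were lower for the same 3 and higher for 4 (Bcan, Hapln1, Hapln2 and Hapln4), against 37.9% and 28.1%. The median log2 difference of the 9 members was 1.35 in NS and 0.55 in IUGR, beside 0.04 and 0.02 over all genes tested.

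The balance within each family was compared as shares of CPM per kilobase, with the gene length of the deposited tables, whose origin is not given in the sources used here. This length was close to the union of GENCODE M21 exons for most members but not for Tnr, with 5395 bases in the tables and 12867 in the union. With the union lengths, an alternative chosen after seeing the data, Tnc held 83.6 to 89.6% of the tenascins at postnatal day 3 and 10.4 to 29.4% at week 8, and the ages stayed apart for all 9 genes. Among the lecticans, Ncan made up 64.2 to 68.5% at postnatal day 3 and 24.0 to 44.3% at week 8. Bcan went the other way, from 17.2 to 21.9% to 53.0 to 73.9%. Vcan held 9.22 to 18.2% and then 1.31 to 3.01%, and Acan at most 1.42% in any library. The ranges of the ages were apart for each of these genes. The summed level of the 4 lecticans was 115 to 131 CPM per kb at postnatal day 3 and 62.5 to 150 CPM per kb at week 8, with the highest and the lowest library both at week 8.

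Among the link proteins, Hapln1 held 75.1 to 92.4% of the family at postnatal day 3 and 11.3 to 28.4% at week 8. Hapln2 held 0 to 8.62% and then 19.2 to 51.4%, and Hapln4 7.33 to 16.3% and then 23.2 to 62.6%. The Hapln1 level itself was higher at week 8, so its lower share came with the much larger levels of the other two. Among the tenascins, Tnc held 70.0 to 79.7% at postnatal day 3 and 5.05 to 16.1% at week 8, and Tnr the rest. Per length, the leading lectican and tenascin of every library were Ncan and Tnc at postnatal day 3 and Bcan and Tnr at week 8. The week 8 lead of Bcan depended on the division by length in the replicate 1 libraries, where Ncan held 51.6% of lectican counts in NS and 57.3% in IUGR against 38.5% and 36.4% for Bcan. In the same libraries Hapln1 still led the link protein counts, with 40.5% in NS and 41.6% in IUGR. Next came Hapln2 with 33.3% in NS and Hapln4 with 36.7% in IUGR.

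**Figure D3:**
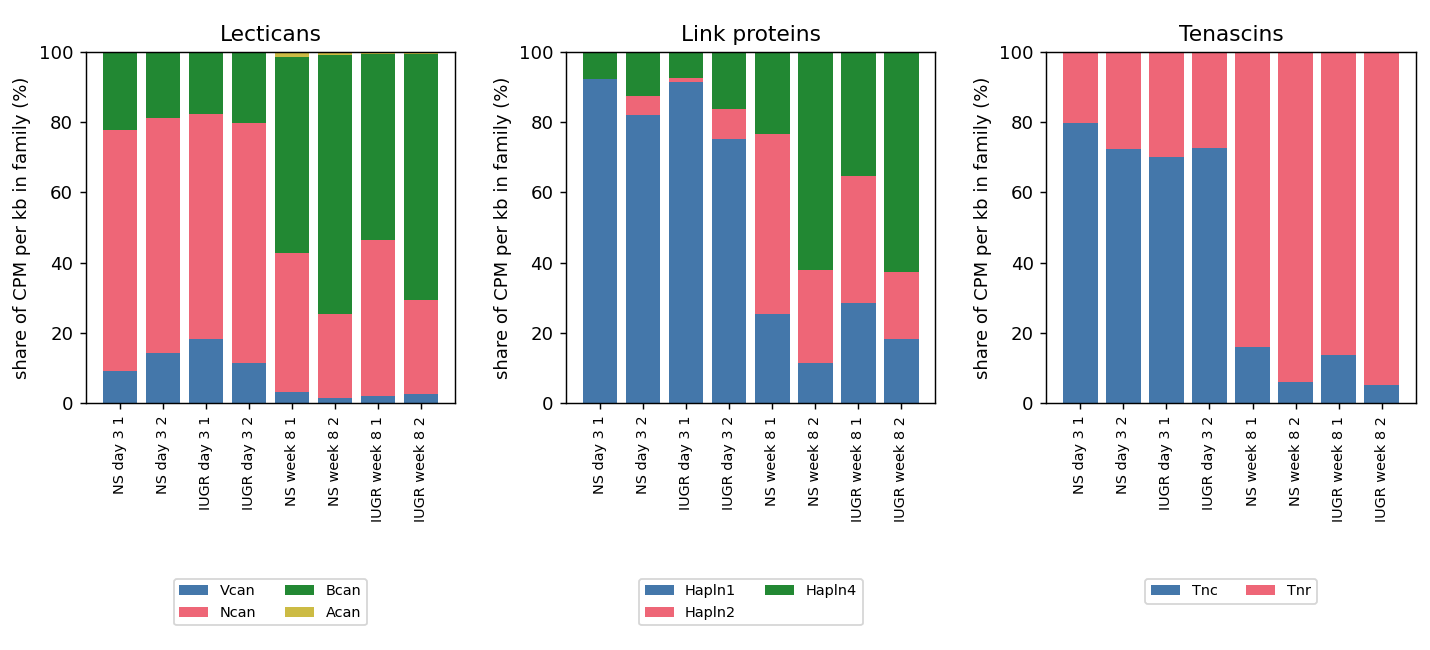
Stacked bars show the share (%) of each gene in the summed CPM per kb of its family, 1 bar per library. Ncan, Hapln1 and Tnc take the largest part of their families in all 4 postnatal day 3 libraries, and Bcan and Tnr take the largest part in all 4 week 8 libraries.

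Across genes, levels were ordered per length. At postnatal day 3 the order of group means in CPM per kb was Ncan, Tnc, Bcan, Vcan, Tnr, Hapln1, Acan, Hapln4 and Hapln2 in both treatment groups. Ncan led with 88.0 ± 2.46 CPM per kb in NS and 78.8 ± 6.95 in IUGR (SD, n = 2). In NS no neighbours in this order overlapped between libraries, and in IUGR Bcan overlapped Vcan, and Hapln4 overlapped Hapln2. At week 8 the order began with Bcan, Ncan, Hapln4, Tnr, Hapln2 and Hapln1 in both groups. The place of Hapln4 came from replicate 2, at 32.8 CPM per kb in NS and 26.9 in IUGR. In replicate 1 it stood at 4.83 CPM per kb in NS, below Tnr, Hapln2 and Hapln1. In IUGR replicate 1 it stood at 6.26 CPM per kb, below Tnr and Hapln2. With the union exon lengths Tnr, at 7.26 CPM per kb in NS and 5.96 in IUGR, came after Hapln2, at 10.7 and 6.35 CPM per kb, in both groups. Bcan led with 73.0 ± 53.9 CPM per kb in NS and 51.6 ± 24.3 in IUGR, and the spread is that of the replicate numbers. In NS Bcan overlapped Ncan, Ncan overlapped Hapln4, Hapln4 overlapped Tnr, and Tnc overlapped Vcan. In IUGR Bcan was apart from Ncan, but Ncan overlapped Hapln4, Hapln4 overlapped Tnr, Hapln2 overlapped Hapln1, and Vcan, Tnc and Acan overlapped in turn.

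Cell type markers moved between the ages too. Oligodendrocyte and myelin markers summed to 102.3 to 143.0 CPM at postnatal day 3 and 4461 to 5615 CPM at week 8. Of these, 9 of 10 passed the edgeR test as higher in NS and 10 of 10 in IUGR. Of all genes, 7.7% did in NS and 9.34% in IUGR. Opalin was at 0 in both NS libraries of postnatal day 3. Astrocyte markers summed to 1291 to 1687 CPM and then 5918 to 6643 CPM, with 9 of 10 log2 differences above 0 in each treatment group. The edgeR test was passed by 6 of 10 as higher in NS and by 8 of 10 in IUGR. Neural stem cell and radial glia markers summed to 2691 to 3546 CPM and then 185.8 to 435.4 CPM, with 7 of 8 log2 differences below 0 in each treatment group. In each group 3 of 8 passed as lower, where 6.44% of all genes did in NS and 7.48% in IUGR. Most of the postnatal day 3 sum was Fabp7, at 2324 to 3061 CPM and then 14.5 to 145 CPM. Hopx was higher in every week 8 library. The part of these lists in the levels of the 9 genes was not tested.

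The genes most like each member were those with the smallest root-mean-square difference between log2(CPM + 1) profiles over the 8 libraries, each centred on its mean, among 13636 named genes with a mean of at least 1 CPM. For Hapln2 these were Myrf (0.187), a transcription factor of myelination, Gjc3 (0.213), an oligodendrocyte connexin, and Fa2h (0.214), which hydroxylates myelin lipids. For Hapln4 they were Nptx1 (0.236), a neuronal pentraxin, Camk2a (0.306), the synaptic kinase, and Kcnab2 (0.402), a potassium channel subunit. For Tnc they were the histone genes Hist1h2bj (0.281) and Hist1h2ag (0.288) and the neuropeptide gene Nts (0.31). Counts of such histone genes are uncertain, because near-identical copies share reads.

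For Vcan the nearest were Sox4 (0.255), a transcription factor of neuronal progenitors, H2afy2 (0.257) and Lmnb1 (0.267), a nuclear lamin. For Ncan they were Mvd (0.097), an enzyme of sterol synthesis, Lpcat1 (0.102) and Dnmt3a (0.102), a DNA methyltransferase. Bcan was nearest to Slc27a1 (0.102), a fatty acid transporter, Pcdh1 (0.108), a protocadherin, and C1ql1 (0.14). Acan was nearest to Nos3 (0.157), the endothelial nitric oxide synthase, Dlec1 (0.175) and Pecam1 (0.187), an endothelial adhesion molecule. Hapln1 was nearest to Fmo5 (0.16), Bcap29 (0.167) and B2m (0.175), and Tnr to Myh7 (0.121), Dlc1 (0.125) and Col19a1 (0.14). No member was among the 3 nearest genes of another member.

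The effect of maternal dexamethasone was compared at each age. At postnatal day 3 none of the 9 genes passed the edgeR test between IUGR and NS, and 0.0% of all genes did. Of all genes 96 (0.6%) had an unadjusted p under 0.05, and none of the 9 was among them. The log2 differences, IUGR over NS, ran from -0.40 ± 0.79 for Tnc to 0.82 ± 1.13 for Hapln2, and the median of the members was -0.03 beside 0.01 for all genes. In DESeq2 fitted to that age alone 65 genes passed (0.447%), and none of the 7 members with an adjusted p was among them. DESeq2 and limma voom on all 8 libraries called 0 genes.

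Tnc and Ncan were lower in both IUGR libraries than in both NS libraries at postnatal day 3, while the other 7 members overlapped. Such an arrangement was found for 16.6% of all genes with IUGR lower and for 19.7%, but no member, with IUGR higher. Tnc stood at 264 and 223 CPM for NS and 180 and 190 CPM for IUGR. Its log2 difference had a narrower error when that age was fitted alone, with a common biological coefficient of variation of 0.154 in place of 0.374. There edgeR gave -0.40 ± 0.12 (unadjusted p = 0.011, adjusted p = 0.821) and DESeq2 gave -0.41 ± 0.14 (unadjusted p = 0.00348, adjusted p = 0.378), and over 21 alternatives the value ran from -0.55 to -0.29 with adjusted p from 0.378 to 1.0. Within a replicate number the log2(CPM + 1) difference of Tnc was -0.55 in replicate 1 and -0.23 in replicate 2, the number whose libraries went against the male label, and that of Ncan was -0.28 and -0.04. For both genes the IUGR libraries all lay below the NS libraries, so a negative difference within either number was fixed in advance. For Ncan, edgeR gave -0.16 ± 0.11 in that age alone (adjusted p = 0.884). The meninges and fibroblast list was lower in IUGR as well, at 763.0 and 743.3 CPM against 429.9 and 430.6 CPM, with 8 of 8 genes below 0. So was the endothelium and mural cell list, at 170.6 and 142.0 CPM against 108.1 and 105.7 CPM, with 5 of 6 genes below 0. The astrocyte list was at 1687 and 1295 CPM against 1291 and 1354 CPM, with 9 of 10 genes below 0 and a median log2 difference of -0.29. The part of these lists was not tested.

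Vcan was high in NS replicate 2 and in IUGR replicate 1 at postnatal day 3, so its 2 treatment groups overlapped, with a log2 difference of 0.19 ± 0.37. The choroid plexus list was high in the same libraries, at 135.7 and 6486 CPM in the NS libraries against 3380 and 490.9 CPM in the IUGR libraries over 6 of 6 genes. At week 8 that list was at 8751 CPM in NS replicate 1 and at 193.7 to 338.7 CPM in the other libraries. Its part in the Vcan level was not tested.

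At week 8 none of the 9 genes passed the edgeR test either, and 0.0% of all genes did. Of all genes 161 (1.01%) had an unadjusted p under 0.05, and none of the 9 was among them. DESeq2 called 1 gene of all (0.0066%) on that age alone, 1 on all 8 libraries, and none of the 9, and limma voom called 0 genes. The median log2 difference of the members was -0.21 beside 0.02 for all genes. Acan and Hapln2 were lower in both IUGR libraries than in both NS libraries, an arrangement found for 9.01% of all genes, while 4.08% of all genes and no member had IUGR higher. The other 7 members overlapped.

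Acan, at 6.52 and 8.53 CPM for NS and 2.50 and 5.00 CPM for IUGR, rested on 85 and 162 counts against 37 and 73. Its log2 difference was -0.93 ± 0.42 (edgeR unadjusted p = 0.0657, adjusted p = 1.0), and over 21 alternatives it ran from -1.52 to -0.53 with adjusted p from 0.424 to 1.0. Hapln2 had a log2 difference of -0.68 ± 0.64 (edgeR unadjusted p = 0.323, adjusted p = 1.0), running from -0.88 to -0.45 over the alternatives. The myelin list summed to 5329 and 5551 CPM for NS and 4461 and 5615 CPM for IUGR, and the endothelium list to 236.3 and 152.2 CPM against 118.1 and 85.9 CPM. The part of either list was not tested. Within a replicate number the log2(CPM + 1) difference of Acan was -1.1 in replicate 1 and -0.67 in replicate 2, and that of Hapln2 was -0.69 and -0.73. For both genes the IUGR libraries all lay below the NS libraries, so a negative difference within either number was fixed in advance. The median of all genes was -0.05 and -0.04. For the remaining members the sign differed between the numbers, apart from Bcan (-0.02 and -0.69) and Tnc (-0.2 and -0.84).

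For several members the week 8 libraries differed more between replicate numbers than between treatments. Hapln4 was 2.69 higher in replicate 2 than in replicate 1 in NS and 2.05 higher in IUGR, in log2(CPM + 1), and Bcan 1.66 and 0.99 higher. For Tnc the same difference was -1.6 in NS and -2.24 in IUGR. Vcan, Acan, Hapln1 and Hapln2 were also higher in replicate 2 in both groups, by 0.06 to 0.79, whereas Ncan went in opposite directions and Tnr was lower in both. At postnatal day 3 the difference between the replicates of a group stayed between -0.68 and 0.61 for all 9 genes.

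**Figure D4:**
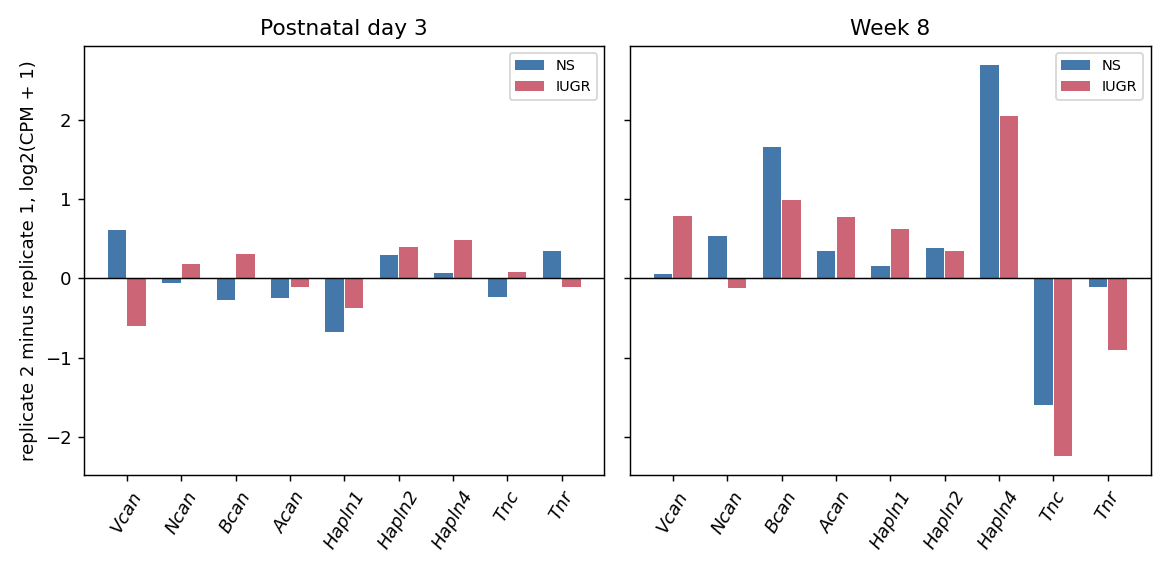
Bars give replicate 2 minus replicate 1 in log2(CPM + 1) for each gene, for NS and IUGR at postnatal day 3 (left) and week 8 (right). At week 8 Hapln4 reaches 2.69 and 2.05 and Tnc -1.6 and -2.24, while all postnatal day 3 bars lie between -0.68 and 0.61.

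Marker lists split by number at week 8 as well. The parvalbumin interneuron list summed to 295.8 and 312.3 CPM in replicate 1 and 676.0 and 521.6 CPM in replicate 2, although Pvalb itself was higher in replicate 1 (60.1 and 62.5 CPM against 29.5 and 34.5 CPM). The oligodendrocyte precursor list summed to 250.3 and 194.8 CPM in replicate 1 and 478.8 and 403.9 CPM in replicate 2. The neural stem cell list summed to 435.4 and 418.6 CPM and then 210.2 and 185.8 CPM. Their part in the levels of Hapln4, Bcan and Tnc was not tested.

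The difference between the effects of IUGR at the 2 ages was tested as an interaction. None of the 9 genes passed in edgeR, as 0.0% of all genes did, and 82 genes of all (0.513%) had an unadjusted p under 0.05. Among the 9 the smallest p was that of Acan, with an interaction of -1.08 ± 0.60 on the log2 scale (unadjusted p = 0.118, adjusted p = 1.0). The difference between IUGR and NS was therefore not shown to differ between the ages for Tnc, Ncan, Acan, Hapln2 or any other member.

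Genes that build, cut or bind this matrix were taken from 5 lists, and those said to rise or fall passed the edgeR test. Of all genes 7.7% passed as higher and 6.44% as lower at week 8 in NS, and 9.34% and 7.48% in IUGR. Of the hyaluronan genes, 4 of 13 fell with age in NS and 5 in IUGR, and none rose. Has2 and Has3 encode hyaluronan synthases: Has2 went from 10.5 and 4.62 CPM to 0.844 and 0.421 CPM in NS (log2 difference -3.57 ± 0.73, adjusted p = 0.0256), and Has3 from 19.9 and 20.6 CPM to 5.37 and 4.21 CPM (-2.05 ± 0.30, adjusted p = 0.0107). Hmmr, a hyaluronan receptor of dividing cells, had -3.98 ± 0.72 (adjusted p = 0.0192), and Tmem2, a cell-surface hyaluronidase, went from 50.6 and 56.3 CPM to 25.3 and 18.4 CPM (adjusted p = 0.0317). All 4 fell in IUGR too. The list median was -0.32 in NS and 0.22 in IUGR, so the genes that did not pass lay on both sides of 0.

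Of the chondroitin sulfate genes tested, 2 of 26 rose and 1 fell in NS, and 3 rose and 1 fell in IUGR. Papss2, which makes the sulfate donor, rose by 2.73 ± 0.28 on the log2 scale in NS (adjusted p = 0.00488), and Ust, an uronyl sulfotransferase, by 2.01 ± 0.48 (adjusted p = 0.04). Chsy1, a chondroitin synthase, fell from 44.5 and 44.1 CPM to 20.3 and 16.2 CPM (adjusted p = 0.0244). Of the lectican-cleaving proteases and their inhibitors, 3 of 21 rose and 1 fell in NS, and 2 rose and 2 fell in IUGR. The aggrecanase Adamts4 rose by 2.63 ± 0.54 in NS (adjusted p = 0.026), and the related Adamts5 fell by 2.56 ± 0.64 (adjusted p = 0.0445). Timp4, an inhibitor, rose by 1.93 ± 0.32 (adjusted p = 0.0146), and Adamts20 by 1.59 ± 0.38 (adjusted p = 0.0385).

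Of the receptors and cell-surface partners, 3 of 28 rose and 2 fell in NS, and 3 rose and 3 fell in IUGR. Cntnap1, an axonal protein of paranodes, rose by 5.29 ± 0.98 on the log2 scale in NS (adjusted p = 0.0201), and the integrin genes Itga8 and Itgav by 1.65 ± 0.39 (adjusted p = 0.0375) and 1.17 ± 0.27 (adjusted p = 0.0353). The adhesion molecules Ncam1 and L1cam fell by 1.61 ± 0.23 (adjusted p = 0.00967) and 1.28 ± 0.32 (adjusted p = 0.0431). Of other chondroitin sulfate proteoglycans and net-associated proteins, 3 of 14 rose in NS and 2 in IUGR, and none fell. In NS these were Nptx1 (4.80 ± 1.01, adjusted p = 0.0277), Tnxb (2.44 ± 0.63, adjusted p = 0.0483), a tenascin of connective tissue, and Pcsk6 (1.48 ± 0.26, adjusted p = 0.0174), a proprotein convertase.

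Between IUGR and NS no gene of these 5 lists passed at either age by edgeR, where 0.0% of all genes did. List medians lay between -0.13 and -0.01 at postnatal day 3 and between -0.17 and 0.04 at week 8. The smallest p at postnatal day 3 was that of Adamts9, a protease of versican and aggrecan (log2 difference -0.73 ± 0.34, unadjusted p = 0.0709, adjusted p = 1.0). Lyve1, a hyaluronan receptor of lymphatic vessels and border macrophages, stood at 7.50 and 7.31 CPM for NS and 2.89 and 3.97 CPM for IUGR at that age (-1.11 ± 0.53, unadjusted p = 0.0784, adjusted p = 1.0). At week 8 it was Hyal1, a lysosomal hyaluronidase (-0.75 ± 0.39, unadjusted p = 0.0991, adjusted p = 1.0), followed by Cspg4, the NG2 proteoglycan (-0.64 ± 0.34, unadjusted p = 0.104, adjusted p = 1.0).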

How the data were processed

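The authors deposited whole-number counts of reads per gene symbol for each age, with a gene length, and normalized tables that were not used. Tools listed in the submitters' processing notes were featureCounts 1.6.1, HISAT2 2.1.0, cutadapt 1.16, DESeq2 1.26.0 and SAMtools 1.9, with genome build mm10. Libraries were ribosomal RNA-depleted total RNA primed at random, per the labels' protocols. Annotation, strandedness and the treatment of multiply mapped reads: not given in the sources used here. A count of 0 allows up to 3 counts.

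The members and gene lists were chosen with earlier results of these data known. Counts of all 8 libraries were fitted in edgeR 4.0.16 (R 4.3.3) with a mean for each of the 4 groups (TMM factors 0.95 to 1.031, default count filter, 15999 genes, quasi-likelihood F test, Benjamini-Hochberg adjustment, threshold 0.05). All 9 members passed the filter; Hapln2 did so through week 8. The SE is the log2 fold change over the square root of F. Treatment came from the labels and replicate numbers from the titles. Named list genes were up to 4 passing genes per direction with the largest change, a mean of at least 1 CPM and no overlap, otherwise the 2 with the smallest p, of which some are given. Alternatives were other scalings and filters, DESeq2 1.42.0, limma 3.58.1 voom, each age alone, a replicate block and libraries left out. The fits were tested on simulated data.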

Additional observations from a re-analysis of the deposited data

How the results depend on the processing

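Of 717 recomputed log2 fold changes of the 9 genes, 607 kept their direction and their side of the threshold, 51 lost a call, 26 gained one and 33 reversed, 31 of these in comparisons of IUGR with NS that did not pass. With single libraries left out, the number of members that passed between ages ran from 0 to 7 in NS and in IUGR, and a group left with 1 library was assumed to vary like the others. Without both replicate 2 libraries of postnatal day 3 it was 0 in each, where only the week 8 libraries gave the spread. In NS it was 8 with DESeq2, 9 without both week 8 replicate 1 libraries and 8 without both week 8 replicate 2 libraries. Over all genes, the 2263 calls in NS and 2691 in IUGR became 4110 and 4581 with DESeq2, 9520 and 9221 without the week 8 replicate 1 libraries, 6201 and 6778 without the week 8 replicate 2 libraries, and 0 without the postnatal day 3 replicate 2 libraries. With 1 library left out they ran down to 51 and 92 and up to 3801 and 4069. The cause was not tested. Without division by length the share of Vcan in the lecticans differed between the ages by -19.5 percentage points and that of Ncan by -18.3.

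The replicate number was tried as a block within age. Across 14637 genes the differences between replicates of NS and IUGR correlated at -0.082 at postnatal day 3 and at 0.862 at week 8, and the labels do not say what a number marks. With the block 9 members passed between ages in NS and 7 in IUGR, where Acan (adjusted p = 0.4) and Tnr did not, 7667 genes passed in NS and 8061 in IUGR, and no member passed between IUGR and NS. At week 8 the block gave Acan -0.98 ± 0.30 (edgeR unadjusted p = 0.012, adjusted p = 0.847) and Hapln2 -0.67 ± 0.22 (unadjusted p = 0.0156, adjusted p = 0.847), and the interaction of Acan an unadjusted p of 0.0307 (adjusted p = 1.0). Hapln4 at week 8 turned to 0.098 with the block, and to 0.086 with DESeq2 on that age with the block, where Vcan turned to -0.014.

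The other reversals of log2 differences were these. IUGR against NS at postnatal day 3 without the replicate 2 libraries gave Hapln4 -0.39 and Tnr 0.21. At week 8 Vcan was -0.014 with upper-quartile scaling and -0.0044 with limma voom, and Hapln4 0.062 with limma voom. Without the week 8 replicate 2 libraries Vcan was -0.37, Ncan 0.29, Bcan 0.066, Hapln4 0.46 and Tnr 0.13, and the age difference of Acan in IUGR was -0.18. With single libraries left out, IUGR against NS at postnatal day 3 ran from -0.18 to 0.52 for Vcan, -0.013 to 0.3 for Acan, -0.57 to 0.16 for Hapln1, -1.0 to 4.84 for Hapln2, -0.47 to 0.5 for Hapln4 and -0.22 to 0.14 for Tnr. At week 8 it ran from -0.42 to 0.4 for Vcan, -0.33 to 0.24 for Ncan, -1.05 to 0.66 for Bcan, -0.09 to 0.55 for Hapln1, -1.53 to 1.87 for Hapln4, -2.03 to 0.8 for Tnc and -0.75 to 0.18 for Tnr. The age difference of Acan in IUGR ran from -0.2 to 0.81. Depth limits Hapln2 at postnatal day 3 most, with at most 7 counts in a library.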
